A study of Mus musculus with 16 samples.

Results

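Memory phenotype CD8 T cells were compared with naive CD8 T cells after 4 h of stimulation, with 4 arrays in each group, 8 of the 16 arrays of the series. The mice were C57BL/6N females, 7 weeks of age, and their CD8+ Thy1.2+ cells were sorted into a fraction low in surface CD44 (naive) and a fraction high in it (memory phenotype). Both fractions were cultured for 4 h with PMA, an activator of protein kinase C, at 10 ng/mL and ionomycin, a calcium ionophore, at 500 ng/mL. The other 8 arrays hold the same sorted fractions after 4 h in medium alone, with 4 arrays of naive resting and 4 of memory resting cells, and they enter below only where the stimulated difference is set against the difference at rest. No infection or immunisation is named in the labels, so memory phenotype means here a high level of CD44 on cells of unimmunised mice. The sort and culture were carried out on 4 occasions, per the series' design text, and how many mice went into each sort is not stated there. Members were taken by their titles, and no measured value was used to choose them.

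A CD8 T cell that has met antigen keeps changes in chromatin and in surface receptors that let it answer a second signal quickly with cytokines and cytotoxic granules. Cells with high CD44 in unimmunised mice also arise by homeostatic proliferation or in the thymus, and they carry receptors for inflammatory cytokines and many receptors shared with natural killer (NK) cells. PMA and ionomycin act below the T cell receptor, on protein kinase C and on calcium, and engage the transcription factors AP-1, NF-kappaB and NFAT in both kinds of cell, so that a difference between them does not depend on antigen recognition.

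Levels are given as log2 signal relative to the 75th percentile of the array, so that 0 is that percentile and 1 unit is a doubling. Differences are memory minus naive with the standard error (SE) of the limma fit, group levels are mean ± SD with n = 4, and a gene was called at an adjusted p of 0.05. On the 8 stimulated arrays that percentile was 506.2 to 645.6 intensity units. In naive cells 60.8% to 63.4% of spots were well above background, and in memory cells 59.3% to 61.4%. The correlation of 2 arrays across genes (Pearson's r), which are not independent replicates, was 0.9887 to 0.9937 within the memory group, 0.9867 to 0.995 within the naive group and 0.9636 to 0.9774 between them. Each group lay on its own slide, so that slide and group cannot be told apart in any comparison below.

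Cd44 encodes the hyaluronan receptor by which the cells were sorted. It stood at 3.86, 2.86, 2.86 and 3.26 on the naive stimulated arrays and at 6.08, 5.69, 5.48 and 5.95 on the memory stimulated arrays, with no overlap. The difference of 2.59 ± 0.19 (adjusted p = 2.39e-07) only tests whether the labels hold, the sort having used its protein. It was smaller than the 4.05 seen at rest (interaction -1.46 ± 0.27, adjusted p = 0.00157). Neither CD8 chain passed, at 0.41 ± 0.21 for Cd8a (adjusted p = 0.178) and -0.04 ± 0.12 for Cd8b1 (adjusted p = 0.832). Thy1 was higher in memory cells by 0.78 ± 0.22 (adjusted p = 0.0182), which was no longer called without naive replicate 2 (0.0627) or 3 (0.0638) and with the mean of its probes (0.0651).

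Of 18411 genes tested, 1833 (9.96%) were higher and 2610 (14.2%) lower in memory than in naive stimulated cells. At least a 2-fold difference was seen in 721 of the higher genes (3.92% of those tested) and 1047 of the lower ones (5.69%). The median difference over all genes was -0.05. The 4 memory and 4 naive arrays did not overlap for 27.1% of genes. The excess of lower genes lay at low signal. Among the 7375 genes with a mean level of 0 or more, 8.76% were higher and 7.57% lower, and among the 4763 genes below -4, 8.25% were higher and 19.9% lower. Sensory receptor genes, such as those of smell, which T cells are not known to use, moved with the lower genes. Of 420 tested, 136 were lower and 33 higher, with a median of -0.44 that shrank to -0.27 with quantile scaling, -0.14 with normexp background correction and -0.13 in the authors' table, and their median level ran from -4.65 to -4.39 on the naive and from -5.01 to -4.75 on the memory stimulated arrays. Their part in the count of lower genes was not tested.

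**Figure D1:**
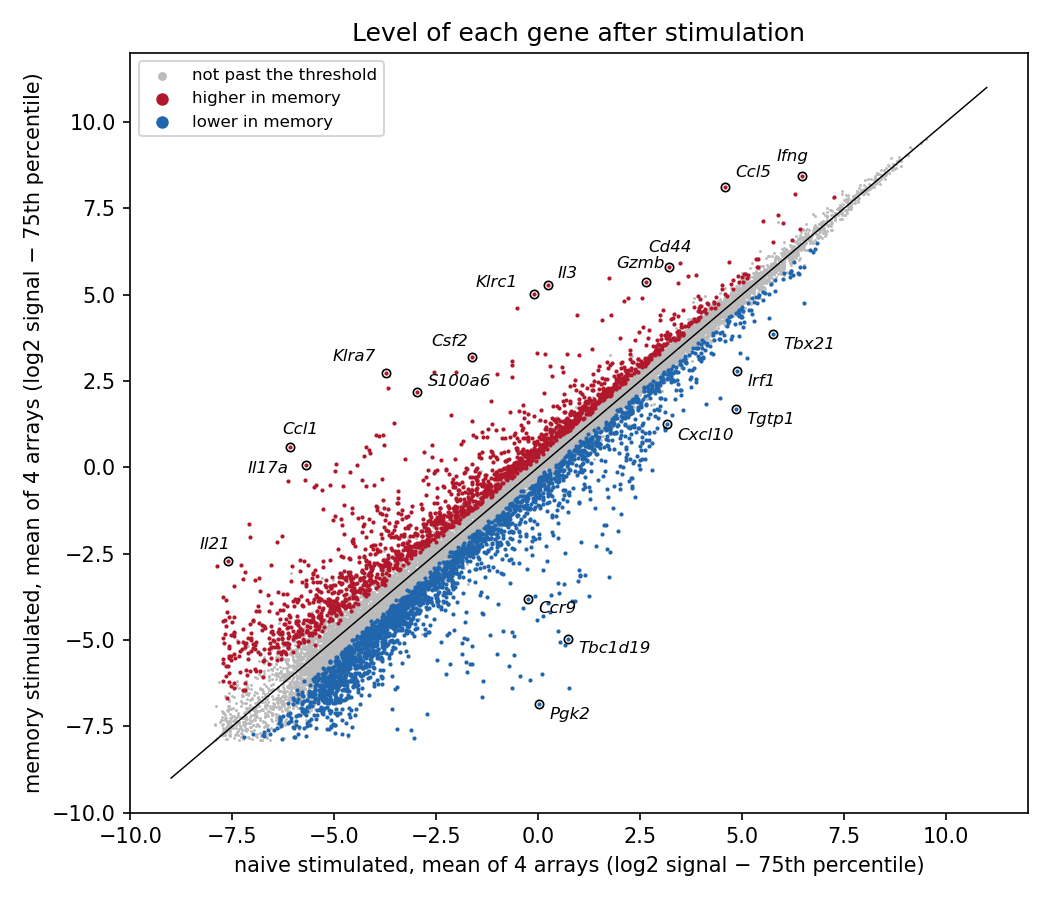
Mean level of each of the 18411 genes in naive stimulated (x axis) and memory stimulated cells (y axis), both as log2 signal minus the array's 75th percentile, with genes called higher in red and lower in blue. Il3, Ccl1 and Klra7 lie far above the diagonal, Tbx21, Irf1 and Tgtp1 lie below it at high signal, and Pgk2 and Tbc1d19 stand apart at the bottom.

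The 10 highest differences among called genes well above background in both groups included those of 4 NK-type lectin receptors (Klra7, Klra23, Klrc3 and Klrc1), the calcium-binding protein gene S100a6, the cytokine Il3, Cd163l1, the glycoprotein hormone gene Stc2 and Ttc39c. Their differences ran from 4.83 ± 0.17 (Ttc39c) to 6.45 ± 0.37 (Klra7). Another 164 genes, whether called or not, were well above background on at least 3 memory arrays and on no naive array, which gives only a bound. The largest bounds were for Tmem163 (at least 28.4-fold higher), Klrk1 (at least 20.4-fold), Klre1 (at least 18.1-fold), Klrg1 (at least 17.3-fold), Il21 (at least 13.5-fold), Il22 (at least 12.4-fold), Dmrta1 (at least 12.3-fold) and Gpm6b (at least 11.4-fold). A second Klre1 probe, at a mean level of -5.17 on the stimulated arrays, was not called (0.36 ± 0.30, adjusted p = 0.42 in the limma fit of all probes).

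Stimulated memory cells held more transcript of the growth factor cytokines Il3, Csf2 and Il21 and, by smaller factors, of Il2 and Ifng, while both lymphotoxin genes were lower. Of 18 cytokines of this kind tested, 6 were higher (33.3%, against 9.96% of all genes) and 3 lower (16.7%, near the 14.2% of all genes), with a median of 0.34. Il3, which encodes a growth factor for blood progenitors and mast cells (mouse build mm7, chromosome 11, 54222252 to 54222311), read 0.74, 0.43, 0.46 and -0.71 on the naive arrays and 5.26, 5.63, 5.73 and 4.55 on the memory arrays. All memory arrays lay above all naive arrays, by 33.5-fold in the means (5.07 ± 0.55, adjusted p = 9.44e-06). Csf2, the gene of GM-CSF (chromosome 11, 54204021 to 54204048), read -2.78, -0.69, -0.84 and -2.11 in naive and 2.29, 3.72, 3.84 and 2.94 in memory cells. Its difference was 4.80 ± 0.43, or 27.9-fold (adjusted p = 1.57e-06). Il21, a cytokine that acts on B cells and CD8 T cells (chromosome 3, 37033994 to 37034053), stayed below that detection limit in all naive samples and read -2.59, -2.74, -2.78 and -2.77 on the memory arrays, the narrowest range of the 3 genes (adjusted p = 5.38e-14). In bulk RNA, a larger share of cells that make a transcript and more of it per cell cannot be told apart.

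Il2, the T cell growth factor, and Ifng, the gene of interferon gamma, were well above background in both groups. Il2 read 3.69, 3.51, 3.50 and 3.01 in naive and 5.32, 5.60, 5.66 and 4.84 in memory cells, a difference of 1.93 ± 0.21 or 3.8-fold (adjusted p = 9.02e-06). Ifng read 6.55, 6.60, 6.62 and 6.11 against 8.35, 8.36, 8.60 and 8.50, a difference of 1.98 ± 0.17 or 3.95-fold (adjusted p = 1.14e-06). A second Ifng probe gave a larger difference, 3.34 ± 0.19 (adjusted p = 1.24e-08 in the fit of all probes), so that the size depends on the probe. Neither gene's groups overlapped, as was the case for 27.1% of all genes. Csf1, the macrophage growth factor, was higher by 1.31. Ltb, which encodes the lymphotoxin chain of lymphoid organ formation, fell from 5.66 ± 0.34 in naive to 4.33 ± 0.18 in memory cells (-1.33 ± 0.15, adjusted p = 1.27e-05), and Lta was lower by 0.77 ± 0.20 on the log2 scale (-0.77, adjusted p = 0.00991). Il16 was lower too (-0.30), and Tnf, at 0.30, did not pass.

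Il3 and Csf2 lie in one cytokine region, and Il2 and Il21 are neighbouring protein-coding genes, per the RefSeq gene order. Between Il3 and Kif3a lie 13 protein-coding genes, counting both ends, all of them tested. Il3, Csf2 and Il4 were higher, Irf1 (-2.08) and Pdlim4 (-0.96) were lower, and 8 did not pass, among them Il5 (3.0 ± 1.10, adjusted p = 0.0595) and Il13 (0.50). To show what stands before these 4 genes, which were higher together, the 250 bases before each start (RefSeq, GRCm38.p6, gene strand) are shown, with each match to GGAAA, the core that NFAT binds, or to its reverse complement in capitals.
Il3, chr11:54267280-54267529, minus strand: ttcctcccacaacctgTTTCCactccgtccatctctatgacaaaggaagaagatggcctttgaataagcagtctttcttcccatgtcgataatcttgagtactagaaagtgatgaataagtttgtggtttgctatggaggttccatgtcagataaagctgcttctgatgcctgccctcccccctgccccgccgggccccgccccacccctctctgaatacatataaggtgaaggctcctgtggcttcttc
Csf2, chr11:54249900-54250149, minus strand: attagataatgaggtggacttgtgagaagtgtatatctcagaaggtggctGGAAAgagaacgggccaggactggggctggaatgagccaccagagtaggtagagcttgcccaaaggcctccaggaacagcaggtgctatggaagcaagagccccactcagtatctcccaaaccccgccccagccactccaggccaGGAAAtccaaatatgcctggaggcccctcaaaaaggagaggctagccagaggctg
Il2, chr3:37125955-37126204, minus strand: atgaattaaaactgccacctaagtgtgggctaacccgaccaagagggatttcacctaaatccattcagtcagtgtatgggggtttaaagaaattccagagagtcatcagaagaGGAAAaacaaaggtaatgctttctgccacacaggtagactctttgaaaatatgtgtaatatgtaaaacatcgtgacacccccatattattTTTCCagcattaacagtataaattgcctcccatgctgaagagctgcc
Il21, chr3:37232637-37232886, minus strand: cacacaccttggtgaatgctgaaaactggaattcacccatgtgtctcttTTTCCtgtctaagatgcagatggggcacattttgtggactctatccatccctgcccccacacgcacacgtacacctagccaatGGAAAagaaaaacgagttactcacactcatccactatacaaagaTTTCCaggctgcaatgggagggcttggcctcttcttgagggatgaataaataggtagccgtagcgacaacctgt
The window of Il3 holds 1 match, those of Csf2 and Il2 hold 2 each and that of Il21 holds 3. Of 32851 windows of this length, 55.6% hold at least 1 match and 6.39% hold 3 or more, so that most windows hold the core. The AP-1 sequence TGANTCA, searched on both strands, is in none of the 4 windows and in 6.75% of all windows.

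Cytokines of the type 17, type 2 and regulatory kinds were higher in memory cells after stimulation. Of 11 tested, 8 were higher and 0 lower, with a median of 3.0, which was 1.31 with normexp and 2.02 in the authors' table. Of the 11, 7 were well above background on at least 3 arrays of both stimulated groups. The others could be tested through 1 group alone, so the count and the median rest partly on signals at background. At rest 2 of the 11 were higher, where 13.9% of all genes were higher and 7.49% lower. Il17a, which encodes the neutrophil-attracting cytokine IL-17A (chromosome 1, 20929491 to 20929550), was well above background on 2 of 4 naive arrays (-6.54, -4.34, -4.53 and -7.36) and on every memory array (0.18, 0.79, 0.98 and -1.64). The difference was 5.77 ± 0.61 (adjusted p = 8.23e-06), set partly by naive arrays at background. At rest Il17a was undetected by this criterion on all 8 arrays. Its neighbour and partner Il17f read -2.61, -2.28, -2.38 and -3.13 in naive and 1.60, 0.80, 1.31 and -1.10 in memory cells (3.25 ± 0.42, adjusted p = 6.22e-05). Il22, the cytokine of epithelial defence, was not well above background on naive arrays and read -1.20, -2.98, -2.48 and -4.70 on memory arrays, the widest range of the 3 genes. Il10, the regulatory cytokine, rose from -4.79 ± 0.42 to -0.54 ± 0.75 (4.25 ± 0.32), Il4, of the type 2 kind, from -4.03 ± 0.57 to -0.50 ± 0.31 (3.53 ± 0.34), and Areg, an epidermal growth factor receptor ligand, from -4.14 ± 0.51 to -1.50 ± 0.26 (2.63 ± 0.20).

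Some markers of unconventional T cells were higher in memory cells too. Of a list of 12 markers of NKT, MAIT or gamma-delta T cells, 7 had a probe and 4 were tested, of which Cd163l1 (5.06 ± 0.33), a scavenger receptor gene, Il23r, the receptor chain for IL-23 (2.53), and Ccr6 (1.18) were higher. The median of the 4 was 1.86, which was 0.57 with normexp, 0.94 in the authors' table and 3.12 over members above background on all 8 arrays. Summed over the list, the signal ran from 0.196 to 0.262 times the 75th percentile on naive and from 1.19 to 2.0 times on memory arrays. At rest all 4 were already higher, and the sum was 0.385 to 0.768 times on naive and 15.0 to 20.2 times on memory arrays, above the stimulated sums. Most of the memory sums came from Cd163l1 alone, at 0.11 ± 0.49 after stimulation and 4.08 ± 0.18 at rest on the log2 scale. Blk, Sox13 and Mmp25 were not well above background on any memory stimulated array. The part of these markers in the cytokine differences was not tested. Across the 22 cytokine and chemokine genes called higher, replicate 4 was the lowest array for 12 in the naive and for 12 in the memory group, and for 10 of them in both.

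**Figure D2:**
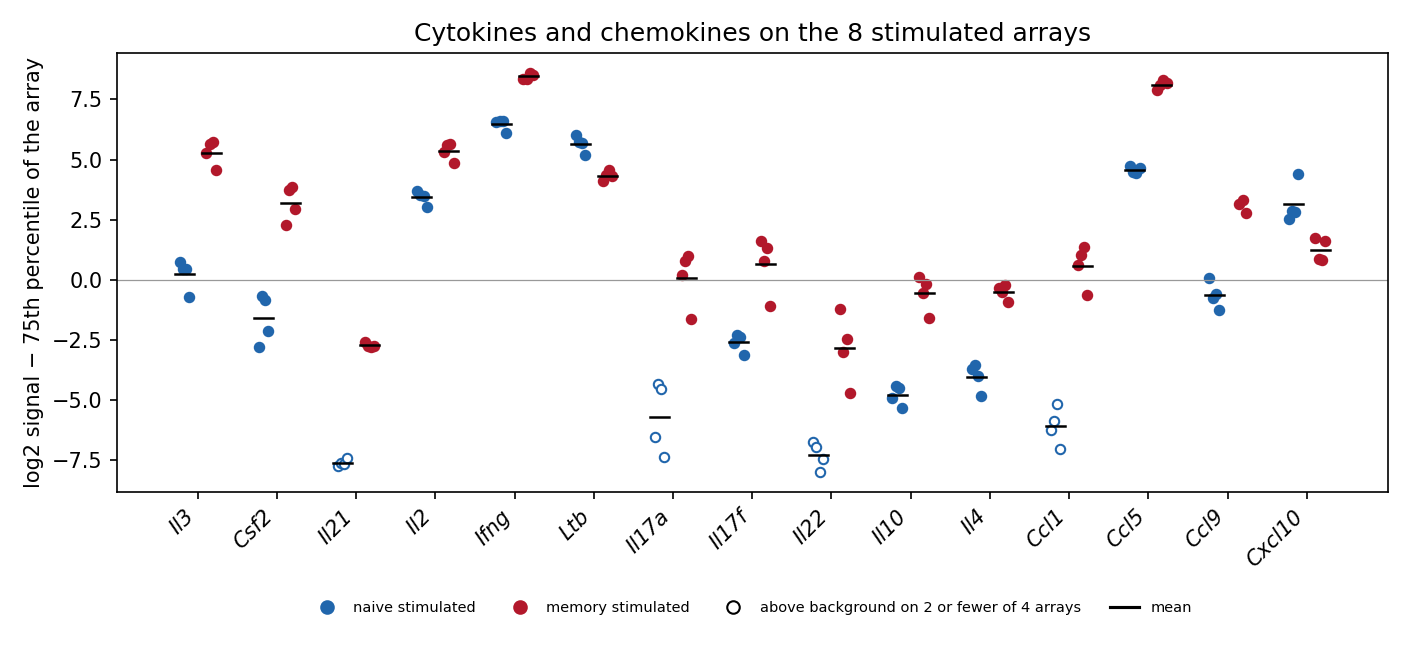
Level of 15 cytokine and chemokine genes (x axis) on each of the 8 stimulated arrays (y axis, log2 signal minus the 75th percentile), naive in blue and memory in red, with the group mean as a black bar and open circles where 2 or fewer of the 4 arrays were well above background. Il21, Il17a, Il22 and Ccl1 have open naive circles at low signal and filled memory circles, while Ltb and Cxcl10 are lower in memory cells; Ccl9 has 3 memory arrays and no mean bar for them.

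Among the chemokines, 8 of 14 tested were higher and 1 lower, with a median of 1.13 (0.44 with normexp, 0.72 in the authors' table and 0.66 over members above background on all 8 arrays). Ccl1, a ligand of the receptor Ccr8 (chromosome 11, 82258409 to 82258468), was well above background on 1 of 4 naive arrays (-6.26, -5.85, -5.15 and -7.05) and read 0.61, 1.02, 1.37 and -0.64 on memory arrays. Its fitted difference was 6.67 ± 0.41 (adjusted p = 3.51e-08), read against naive signals mostly at background, and at rest it was undetected on all 8 arrays. Ccl5, which attracts effector T cells and monocytes, went from 4.57 ± 0.13 to 8.12 ± 0.17 (3.55 ± 0.15, adjusted p = 6.34e-10). Ccl9 was higher by 3.72 ± 0.27, with memory replicate 1 left out because its spot was marked as an outlier. Ccl3 (0.33) and Ccl4 (0.14) did not pass. Cxcl10, an interferon-inducible ligand of Cxcr3, was lower, at 2.54, 2.88, 2.83 and 4.41 in naive and 1.73, 0.88, 0.83 and 1.60 in memory cells (-1.90 ± 0.40, adjusted p = 0.00309). Of 10 ligands of the TNF superfamily 6 were higher and 1 lower, with Fasl, the death receptor ligand, at -0.64 ± 0.35 in naive and 2.62 ± 0.21 in memory cells (3.26 ± 0.24) and Tnfsf9, the ligand of 4-1BB, higher by 1.98 ± 0.29.

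NK-type lectin receptors, which sense MHC class I and stress ligands, had the largest share of higher members of the 23 lists. Of 22 tested, 21 were higher and 0 lower, with a median difference of 4.61 (2.27 with normexp), and at rest 21 were higher with a median of 5.13. Only 11 of the 22 were well above background on at least 3 arrays of both stimulated groups. A probe could be tested through 1 group alone, so the count and the median rest partly on signals at background. Klra7, a Ly49 receptor gene (chromosome 6, 130245389 to 130245542), read -4.33, -3.16, -2.89 and -4.51 in naive and 2.33, 2.37, 2.44 and 3.77 in memory cells (adjusted p = 1.3e-08). Memory replicate 4 lay above the other memory arrays for this gene and for Klra23 (3.29 against 1.91 to 2.03). Klrc1, which encodes the inhibitory receptor NKG2A, read -0.49, -0.42, -0.22 and 0.70 in naive and 4.70, 4.95, 4.96 and 5.50 in memory cells (5.13 ± 0.24, adjusted p = 2.23e-09). Klrk1, the gene of NKG2D, and Klrg1, a receptor of late effector cells, were not well above background in naive cells. Only Klrb1a (1.19) did not pass, and Klrd1, the CD94 partner of the NKG2 chains, was called at 0.99. Counting every Ly49 gene with a tested probe, 16 of 17 were higher, from 1.08 to 6.45. Probes of different Ly49 genes shared at most 20 bases in a row, held by Klra7 and Klra15, so that these near-identical genes may still read each other's transcripts. The 16 higher genes, Klra7 and Klra23 among them, are therefore not shown to be separate transcripts.

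Cytotoxic granule genes were higher too, with 12 of 20 tested higher, 0 lower and a median of 1.01. Gzma, which encodes granzyme A, read -3.31, -3.38, -3.95 and -4.56 in naive and 1.28, 1.12, 1.51 and -0.09 in memory cells (4.76 ± 0.40, adjusted p = 9.3e-07). Gzmm was higher by 3.65 ± 0.15 and Gzmk by at least 6.17-fold. Gzmb, the granzyme that cleaves caspases, spread widely, at 4.04, 2.01, 1.99 and 2.5 in naive and 6.62, 5.32, 5.66 and 3.84 in memory cells. Its groups overlapped, although the difference of 2.72 ± 0.59 passed (adjusted p = 0.00379). The pore protein gene Prf1 was higher by 1.66, and the granule matrix gene Srgn (-0.07) and the lysosomal genes Lamp1 (-0.09) and Lamp2 (-0.12) did not pass. Markers of NK cells moved in the same direction, and several of them (Gzma, Prf1, Nkg7, Klrd1, Klre1, Klrb1c) are members of the lists just described. Of 12 such markers 11 were tested and all 11 were higher by the probe used (median 1.87), with a summed signal of 17.3 to 25.4 times the 75th percentile on naive and 57.3 to 80.0 times on memory arrays. In the fit of all probes, neither Klrb1c probe was called (0.88, adjusted p = 0.0532, and -0.02, adjusted p = 0.966). Nor was a second Klre1 probe (0.36, adjusted p = 0.42), so that the count depends on the probe. Ncr1, which encodes the NK receptor NKp46, was above background on 3 memory and 0 naive arrays (-5.16, -4.76, -4.53 and -7.45 in memory cells), and Itga2 on none of the memory arrays. The part of these markers in the differences was not tested.

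Receptors for chemokines and for cytokines had members called in both directions, and the share of lower members was near or below that of all genes. Of 21 chemokine and egress receptors 9 were higher (42.9%) and 4 lower (19.0%), where 9.96% of all genes were higher and 14.2% lower. Ccr2, a receptor that brings cells to inflamed tissue, was higher by 4.42 ± 0.32 and Cxcr5, the receptor of B cell follicles, by 3.08 ± 0.17. Ccr9, the receptor for homing to the small intestine (chromosome 9, 123499521 to 123499580), was lower, at 0.08, -0.57, -0.75 and 0.28 in naive and -3.81, -3.75, -4.04 and -3.59 in memory cells (-3.56 ± 0.20, adjusted p = 1.48e-08). Ccr7 (-0.82) and S1pr1 (-1.02), which hold and release cells in lymphoid tissue, were lower as well. Gcnt1, the enzyme that builds selectin ligands, was higher by 5.72 ± 0.41, with 1 of 4 naive arrays above background. Itgae, the integrin chain that binds E-cadherin, fell from 1.0 ± 0.26 to -1.03 ± 0.20 (-2.03 ± 0.17).

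Of 30 cytokine receptors 8 were higher (26.7%, against 9.96% of all genes) and 3 lower (10.0%, against 14.2%). Il18rap and Il18r1, the chains of the IL-18 receptor, were higher by 5.33 ± 0.25 and 4.45 ± 0.25 (adjusted p of 2.23e-09 and 1.03e-08), with Il18r1 at -5.08, -4.36, -4.29 and -4.69 in naive and -0.40, -0.26, 0.05 and 0.00 in memory cells. The chains of the IL-2 receptor did not pass, at 0.24 for Il2ra, -0.03 for Il2rb and 0.11 for Il2rg. Ifngr2, a chain of the interferon gamma receptor, was lower (-1.92 ± 0.22, adjusted p = 2.03e-05) and Ifngr1 higher (1.06). Among 32 costimulatory and inhibitory receptors 11 were higher (34.4%) and 4 lower (12.5%, near the share of all genes). The inhibitory receptors Havcr2 (3.13 ± 0.29), Ctla4 (2.45 ± 0.25) and Pdcd1 (2.32 ± 0.19) were higher, each without overlap between the groups, as was the case for 27.1% of all genes.

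The immediate early transcription factors, which PMA and ionomycin switch on directly, had 1 higher (9.96% of all genes were) and 6 lower members (14.2% of all genes were) of 32 tested, 25 not passing, and a median of -0.04. The share of lower members was thus near that of all genes. The same list at rest had 4 higher and 16 lower (median -0.65), where 13.9% of all genes were higher and 7.49% lower. Fos (-0.12), Egr2 (0.41), Nr4a1 (-0.05) and Myc (-0.07) did not pass after stimulation. Rel, an NF-kappaB subunit, was lower, at -0.02, 0.45, 0.53 and 0.38 in naive and -2.11, -1.19, -1.22 and -0.99 in memory cells (-1.71 ± 0.26, adjusted p = 0.000229). Jun, a subunit of AP-1, was lower by 1.03 ± 0.18 on the log2 scale (-1.03, adjusted p = 0.000796), and the single higher member was Batf3 (1.29 ± 0.23).

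Of 24 effector and memory transcription factors 9 were higher (37.5%, against 9.96% of all genes) and 5 lower (20.8%, against 14.2%). Zbtb32 (2.61 ± 0.24), Runx2 (2.59 ± 0.31) and Prdm1, which encodes Blimp-1 (1.64 ± 0.29), were higher. Tbx21, which encodes T-bet, a factor that drives Ifng (chromosome 11, 97207142 to 97207201), was lower after stimulation although it was higher at rest by 4.05. It read 5.41, 5.72, 5.69 and 6.20 in naive stimulated and 3.74, 3.76, 4.06 and 3.85 in memory stimulated cells. The difference was -1.90 ± 0.20 (adjusted p = 6.8e-06) and its change with stimulation -5.96 ± 0.28 (adjusted p = 2.07e-09). Bcl6, a repressor of effector genes, was lower by 1.40 ± 0.26 on the log2 scale (-1.40, adjusted p = 0.00132), with overlapping groups (3.01 to 4.24 in naive, 1.93 to 3.11 in memory cells). Of 30 naive, stemness and quiescence genes 13 were lower and 2 higher, with a median of -0.56. Ramp1 (-1.67 ± 0.23), Igfbp4 (-1.53 ± 0.25), the PI3 kinase inhibitor Pik3ip1 (-1.26 ± 0.17) and Tcf7, which encodes TCF-1 (3.02 ± 0.20 in naive and 2.02 ± 0.13 in memory cells, -1.01 ± 0.11), were lower without overlap. The groups did not overlap for 27.1% of all genes. Outside the lists, Tcf7l2, a factor related to TCF-1, was lower (-3.12 ± 0.28), as was Kit, the stem cell factor receptor (-2.13 ± 0.24). Both were chosen after their values were seen.

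Interferon-stimulated genes split. Of 30 tested, 5 were higher and 5 lower (16.7% each), 20 did not pass, and the median was 0.08. Over all genes 9.96% were higher and 14.2% lower, so the share of lower members was near that of all genes. Ifit3, a gene of the type I interferon response, was higher (1.62 ± 0.35, adjusted p = 0.0036). Irf1, a factor induced by interferon gamma, was lower, at 4.30, 4.90, 4.80 and 5.49 in naive and 2.65, 2.59, 2.84 and 3.09 in memory cells (-2.08 ± 0.19, adjusted p = 2.47e-06). Gbp2 (-1.38 ± 0.31, adjusted p = 0.00428) was lower as well. A wider set of interferon-inducible GTPases (names beginning Gbp, Irgm, Tgtp, Iigp or Igtp), chosen after the values were seen and so without a test, had 11 of 13 tested members lower and 0 higher, with a median of -1.77. Tgtp1 read 4.14, 4.69, 4.84 and 5.77 in naive and 1.71, 1.34, 1.41 and 2.26 in memory cells (-3.18), and Irgm1 3.87, 4.35, 4.36 and 5.30 against 2.42, 1.64, 1.52 and 2.42 (-2.47). Their median difference at rest was 0.49. After stimulation 13 of the 13 fell in memory cells relative to rest, as did 40.7% of all genes (30.2% rose). In naive cells 3 rose and 2 fell, where 36.8% of all genes rose and 32.0% fell.

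Genes of cell division were higher in memory cells, both after stimulation and at rest. Of 28 mitosis and G2/M genes 18 were higher and 0 lower, with a median of 1.10 (1.62 at rest). The median was 0.56 with normexp and 0.22 over members with a mean level of 0 or more. Mki67, the proliferation marker, read -1.07, -1.17, -1.25 and -1.38 in naive and 1.73, 0.88, 1.13 and 0.68 in memory cells (2.32 ± 0.25, adjusted p = 1.17e-05), and Ccna2, the gene of cyclin A, was higher by 2.45 ± 0.32. Of 35 DNA replication genes 13 were higher and 1, Chaf1b, lower (-0.80). Cdc6 (2.20 ± 0.25) and Mcm10 (2.13 ± 0.24), both needed to start replication, were among the higher ones, while Pcna (-0.03) and Mcm2 to Mcm7 did not pass. Ribosome biogenesis genes, a marker of growth, had 1 higher (Ubtf, 0.45) and 1 lower (Gar1, -0.42) of 38, with a median of 0.04. The glycolysis list had 2 higher and 3 lower of 25, with Ldhb the most changed (-1.40 ± 0.13), and the amino acid list 3 higher of 28, led by asparagine synthetase, Asns (2.72 ± 0.21).

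S100, annexin and galectin genes had 9 higher and 1, Lgals7, lower (-1.77) of 24. S100a6 read -2.89, -2.74, -2.94 and -3.31 in naive and 2.12, 2.27, 2.48 and 1.79 in memory cells (5.14 ± 0.17, adjusted p = 4.89e-11), and S100a4 was higher by 4.76 ± 0.19. The galectin genes Lgals1 (2.64 ± 0.18) and Lgals3 (2.58 ± 0.19) and the annexin genes Anxa1 (1.62 ± 0.30) and Anxa2 (1.45 ± 0.33) were higher too. Of 24 BCL-2 family and cell death genes 5 were higher and 2 lower, with the inflammatory caspase genes Casp1 (2.42 ± 0.19) and Casp4 (2.14 ± 0.19) and the survival gene Bcl2 (1.26 ± 0.27) higher. T cell receptor signalling genes had 5 higher (15.2%) and 8 lower (24.2%) of 33. Feedback inhibitors had 6 higher (17.6%) and 5 lower (14.7%) of 34, and adhesion genes 7 and 7 of 27 (25.9% each). Over all genes 9.96% were higher and 14.2% lower, so the share of lower feedback inhibitors was near that of all genes.

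**Figure D3:**
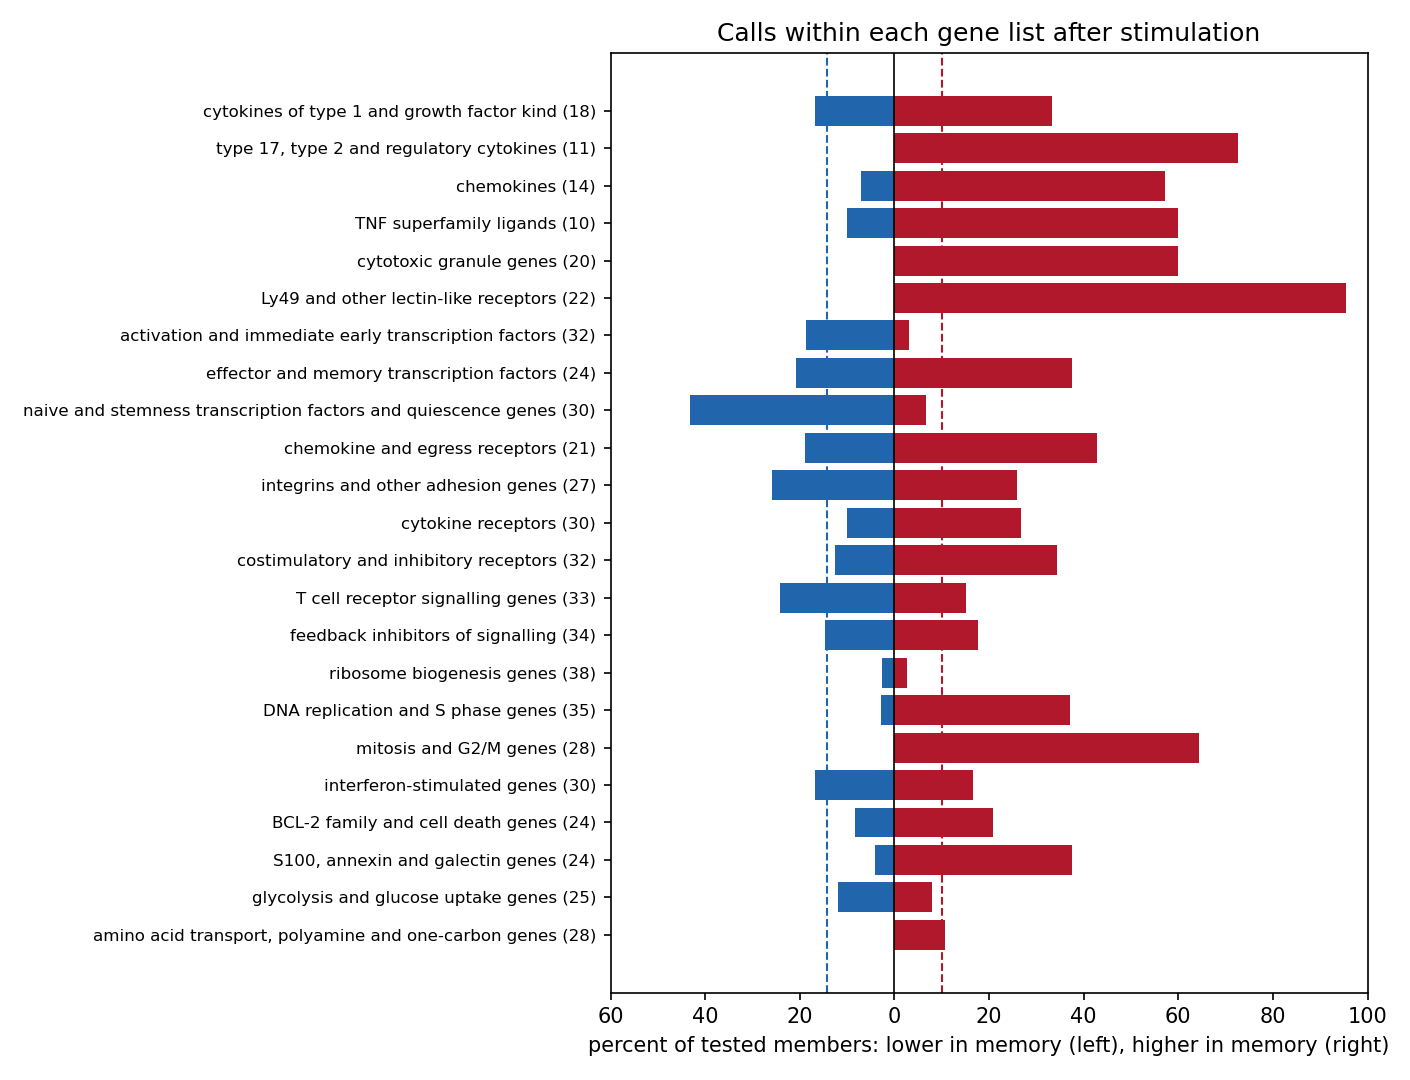
Percent of the tested members of each of 23 gene lists (number tested in brackets) called higher in memory stimulated cells (red, to the right) or lower (blue, to the left); dashed lines mark 9.96% and 14.2%, the shares of all 18411 genes. The lectin-like receptors reach furthest to the right, with 21 of 22 higher, and the naive and quiescence genes furthest to the left, with 13 of 30 lower.

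Other cell types were looked for through their markers. Of 7 B cell markers tested 1 was lower and 0 higher, and Pax5, Ebf1, Blk, Fcer2a and Cd22 were not well above background on any memory array. Of 15 monocyte, macrophage or neutrophil markers 4 were higher, namely Tyrobp (2.37 ± 0.22), an adaptor that NK cells share, Fcgr3 (1.75), Lyz2 (1.58) and Adgre1 (1.0), with summed signals of 1.92 to 3.49 times the 75th percentile on naive and 3.29 to 4.97 times on memory arrays. Among 10 markers of dendritic cells or MHC class II 3 were higher (H2-Eb1 at 0.79, Zbtb46 at 1.14 and Batf3 at 1.29) and 1, Cd74, was lower (-2.01 ± 0.58, adjusted p = 0.0197), a call that ended without naive replicate 2 (0.0549) or 4 (0.0592). Of 4 CD4 or regulatory T cell markers Zbtb7b was higher (1.48) and Ikzf4 lower (-1.98), and Foxp3 was not above background on any memory array. Of 4 erythrocyte or platelet markers the globin genes Hba-a1 (-1.09) and Hbb-bt (-0.79) were lower by the probe used. In the fit of all probes, another Hba-a1 probe was not called (-0.12, adjusted p = 0.789). Nor were the other Hbb-bt probes (-0.19, 0.47 and -0.36), so that these results depend on the probe. The part of these markers in the differences above was not tested. T cell markers ran from 329.0 to 452.0 times the 75th percentile on naive and from 391.0 to 474.0 times on memory arrays, summed over 11 genes.

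The difference after stimulation was set against the difference at rest through the interaction in the same fit. It was positive for 1055 genes (5.73%) and negative for 2614 (14.2%), so that 28.8% of the called interactions were positive. That share was 40.7% with quantile scaling, 44.9% with normexp background correction and 46% in the authors' table, and it was 59.6% among genes with a mean level of 0 or more, where the balance turned. Of the 1833 genes higher after stimulation, 697 were also higher at rest, 1075 were not called there and 61 were lower. Of the 2610 lower genes, 308 were lower at rest, 1600 were not called and 702 were higher. The stimulated arrays enter both the interaction and the stimulated difference.

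By fitted value the 5 largest positive interactions among genes called after stimulation were those of Ccl1 (6.54 ± 0.59), Il3 (5.82 ± 0.77), Il17a (5.73 ± 0.86), Il21 (5.11 ± 0.13) and Cpa4 (4.49 ± 0.33), a carboxypeptidase gene. These sizes and their order rest on signals at background. Ccl1, Il17a and Il21 were not well above background on any resting array and Il3 on 1 of 8, so that a difference between the groups at rest could not be seen. Il21 and Cpa4 were not above background on any naive stimulated array, nor Cpa4 on any memory resting array. Klrc3 (5.18 at rest and 5.33 after stimulation) and Ccr9 (-3.76 and -3.56) kept similar values, and their interactions did not pass. Genes that were higher at rest and lower after stimulation included Tbx21, Sft2d1, a vesicle transport gene (at least 17-fold higher at rest, not above background in naive resting cells, and -2.69 after stimulation) and Cep20, a centrosome gene (higher at rest, with 2 of 4 naive resting arrays above background, and at least 6.64-fold lower after stimulation). The sensory receptor genes Vmn1r237 (interaction -7.04 ± 1.17, with 1 naive resting and 1 memory stimulated array above background) and Olfr1276 (2.78 ± 0.30) were named by the same rule. The Vmn1r237 probe holds a run of 6 bases of the telomeric repeat, a feature described below.

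**Figure D4:**
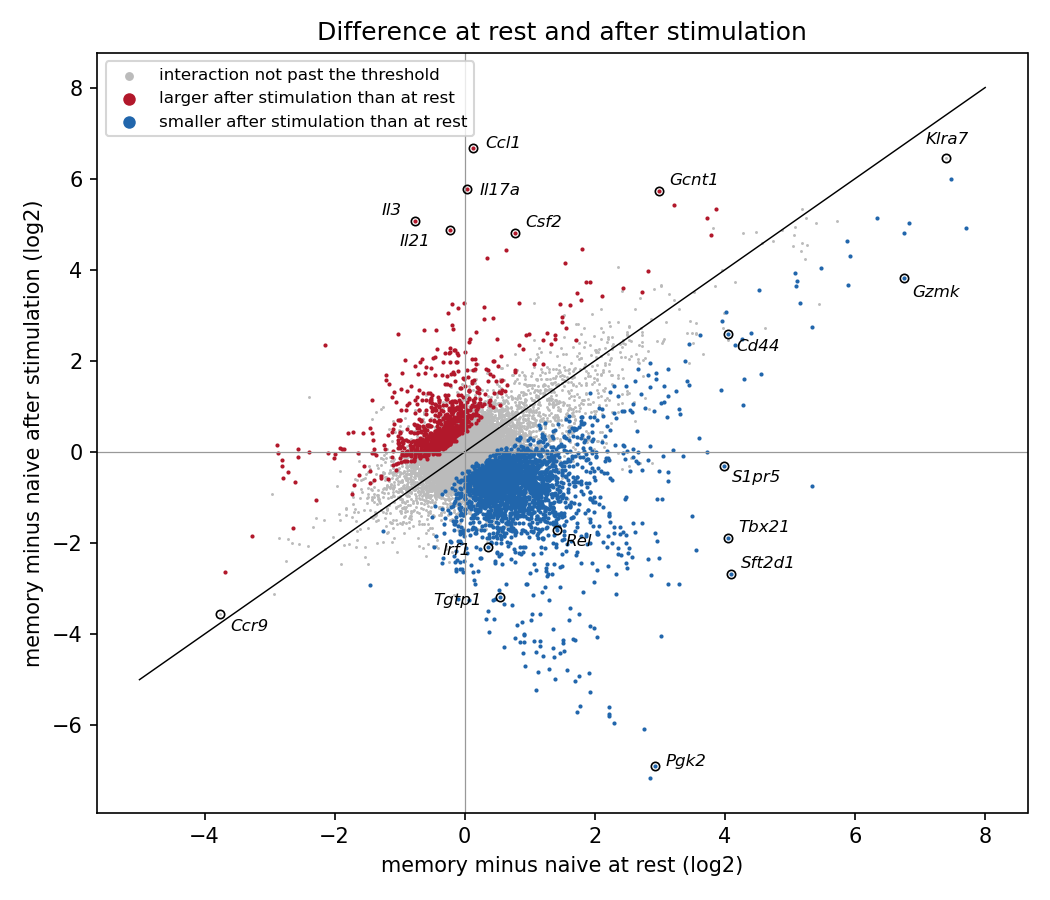
Memory minus naive difference of each gene at rest (x axis, log2) and after stimulation (y axis, log2), with genes past the interaction test in red (larger after stimulation) or blue (smaller). Il3, Il21, Il17a and Ccl1 lie high on the vertical axis near 0 at rest, where their signal was at or near background, Klra7 and Ccr9 lie near the diagonal, and Tbx21 and Sft2d1 lie to the right below 0.

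The genes lower by the largest factors shared a feature of their probes. The 10 lowest among called genes above background in both groups ran from -5.70 ± 0.89 (Tbc1d19) to -4.42 ± 0.82 (Sdk2) and included Angptl7 (-5.22 ± 0.89), Plaat5, Bcl2l14 and Arhgap32, with SEs of 0.78 to 0.94. Pgk2, a glycolytic enzyme gene of the testis, was at least 101-fold lower, Rtbdn at least 47.8-fold, Bmp3 at least 35.1-fold and Vps37d at least 18.2-fold. Pgk2 read -1.39, 0.89, 0.23 and 0.36 in naive and -6.63, -6.88, -7.49 and -6.46 in memory cells, and naive replicate 1 was the lowest naive array for Tbc1d19, Angptl7 and Sdk2 too. Read 5′ to 3′, the probes of these genes hold stretches of the telomeric repeat, whose unit is CCCTAA. Each line gives 30 bases of a 60-base probe, with the longest stretch of the repeat in capitals.
Pgk2, bases 23 to 52, run of 7: aaccaactcaaCCTAACCtatatctcaaca
Tbc1d19, bases 21 to 50, run of 8: ttttaaaacaaTAACCCTAcacaccaaata
Arhgap32, bases 1 to 30, run of 8: caggggtctCTAACCCTgaaccacaaggaa
Bcl2l14, bases 10 to 39, run of 7: cttaagtcttgCTAACCCgtcctctcaaaa
Elf4, bases 25 to 54, run of 7: gcccatcacatCTAACCCgattctcgcttc
Als2cl, bases 2 to 31, run of 8: ttaccatcaatACCCTAACtgcctagatcc
In all 10 of the lowest genes the run was 5 bases or more, and in 7 it was 7 or more.

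The share of lower genes rose with the run, a pattern seen in the data and described without a test. Of 14919 genes whose probe held 4 bases or fewer, 13.2% were lower. The share was 16.7% at 6 bases (706 genes), 42.6% at 7 (216 genes), 73.9% at 8 (69 genes) and 87.5% at 9 or more (24 genes), with medians of -0.07, -0.48, -1.86 and -1.58. For runs of the repeat's other strand it was 12.6% at 7 bases (167 genes) and 7.5% at 8 or more (40 genes). Of the 71 genes lower by at least 8-fold, 45 (63.4%) held a run of 7 or more, against 1.68% of all genes tested, and of the 83 genes higher by at least 8-fold none did. Over the 93 genes with runs of 8 or more, the median level was 1.14, 2.13, 1.71 and 2.36 on the naive and -0.33, -0.21, -0.19 and 0.35 on the memory stimulated arrays. On the resting arrays it ran from -0.06 to 2.09 in naive and from 0.05 to 1.93 in memory cells.

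Genes with a second probe show the same feature within 1 gene. Elf4, a transcription factor that holds CD8 T cells in quiescence, was lower by its probe with the run (-4.15 ± 0.72) and not by its other probe (-0.56 ± 0.75, adjusted p = 0.634 in the fit of all probes). That other Elf4 probe holds a run of 5 and stood at low signal, with a mean level of -5.39 on the stimulated arrays. Als2cl read -2.93 with the run of 8 and -0.41 without, and Bcl2l14 -4.77 and -0.84. In the fit of all probes, the Als2cl and Bcl2l14 probes without the run were still called lower (adjusted p = 0.0334 and 0.00172). Over 153 genes with a tested probe of each kind (7 or more against 4 or fewer bases), the median difference was -0.25 with the run and -0.04 without, and the probe with the run was the lower one in 106. Without probes that hold a run of 7 or more, 1806 genes were higher and 2442 lower. Elf4 and Als2cl have the largest differences among the lower genes of the quiescence list, and the probes used for Ramp1, Igfbp4, Pik3ip1 and Tcf7 have no run of more than 4 bases. A second Tcf7 probe has a run of 6 and a difference of -0.74. What causes the signal of these probes to differ was not tested.

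**Figure D5:**
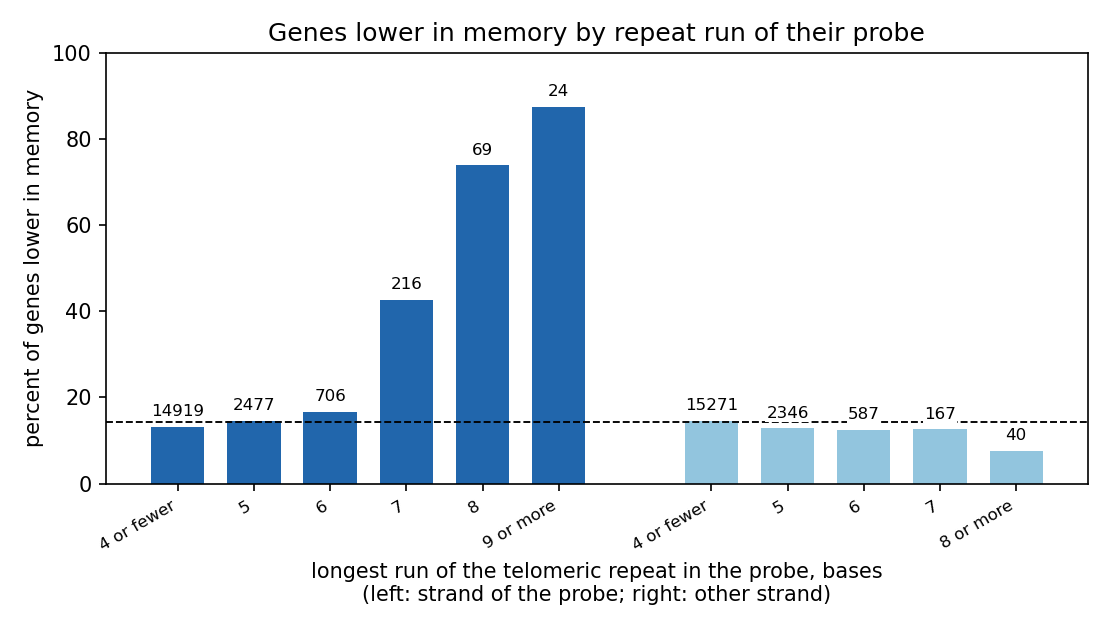
Percent of genes called lower in memory stimulated cells (y axis) by the longest run of the telomeric repeat in their probe (x axis, bases), on the strand of the probe (dark bars) and on the other strand (light bars), with the number of genes above each bar and the share of all genes (14.2%) as a dashed line. The dark bars climb to 87.5% at 9 bases or more, and the light bars stay at 7.5% to 14.5%.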

How the data were processed

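Each sample was hybridised alone, in Cy3, to a whole mouse genome array with 60-base probes. Per the file headers, Agilent Feature Extraction 9.5.3.1 subtracted background, and the deposited intensity is the processed signal of each spot, corrected within its array and not between arrays. The labels' protocols give oligo-dT T7 amplification of total RNA. The authors' deposited table of processed intensity values, which looks quantile normalized (a median of 149.0 on every array), served as an alternative. Control and outlier spots were left out, log2 signal was scaled to each array's 75th percentile, and replicate spots were averaged. Testing required a probe to exceed background clearly on 3 or more of 4 arrays of a group, and a gene was represented by its brightest of 27361 tested probes. The limma 3.58.1 model used all 16 arrays, with a mean for each group, in R 4.3.3 (two-sided, Benjamini-Hochberg over 18411 genes). Tables and drawings used Python 3.11.15. "At least" folds set the bright group's mean against the dim probe's signal or, where higher, the array's detection limit (its lowest clearly detected probe). Names come from RefSeq tables except for 8455 of 41174 probes, which keep the name in the files. Probe positions are on mm7, and their exon or UTR annotation was not used here. Of 6042 genes with several tested probes, 51 had probes called in opposite directions. The fit was tested on simulated data.

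The text names the 10 highest and 10 lowest called genes above background in both groups, the 8 largest bounds in each direction, up to 6 called members of each list, the sort markers and the 5 largest interactions in each direction, among called genes and among those of opposite sign at rest, unnamed transcripts apart; other list members are given as values. The lists, members and rules were chosen with earlier results of these data known. Some genes are not reported here. Replicate numbers were not taken to pair the arrays.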

Additional observations from a re-analysis of the deposited data

Results flagged for a closer look

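In 11 of 210 groups of 4 arrays (105 genes in 2 groups each), one array stood apart from the other 3 by more than Dixon's critical value for the gap over the range; chance gives about 1 in 20. Among memory arrays, replicate 4 was apart for Klra7 (3.77 against 2.33 to 2.44), Klra23 (3.29 against 1.91 to 2.03) and Pik3ip1 (-1.51 against -2.01 to -1.96). Memory replicate 1 was apart for Stc2 (0.61 against 1.02 to 1.07) and Bcl2 (3.64 against 4.07 to 4.10). Among naive arrays, replicate 1 was apart for Lta (1.94 against 1.03 to 1.17), Tnfsf9 (-2.01 against -3.56 to -3.40), Bcl6 (3.01 against 4.13 to 4.24) and Tcf7l2 (-2.62 against -1.57 to -1.55). Naive replicate 4 was apart for Ifng (6.11 against 6.55 to 6.62) and Gzmk (-6.87 against -7.98 to -7.87).

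The memory minus naive difference changed between rest and stimulation, by the interaction of the limma fit, for Ccl1 (6.54), Il3 (5.82), Il17a (5.73), Il21 (5.11), Cpa4 (4.49) and Olfr1276 (2.78), which were larger after stimulation. It was smaller after stimulation for Tbx21 (-5.96), Cep20 (-6.19), Sft2d1 (-6.78), Vmn1r237 (-7.04) and Pgk2 (-9.81). The probes of Vmn1r237 and Pgk2 hold runs of 6 and 7 bases of the telomeric repeat. Of all the genes in this paragraph, Tbx21 was well above background on all 16 arrays and Olfr1276 on at least 3 of 4 in each group. The other values, fitted with 1 or more groups at or near background, give no exact size or order.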

How the results depend on the processing

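Against 1833 higher and 2610 lower genes, quantile scaling gave 2082 and 2113, the authors' values 2040 and 2185, no filter on dim probes 1714 and 2602, a filter on all 8 stimulated arrays 1534 and 1878, the 8 stimulated arrays fitted alone 1691 and 2686, and the mean of a gene's probes 1710 and 2676. Normexp background correction gave 1497 and 1687 (287 and 286 with at least 2-fold, against 721 and 1047), and the cause was not tested; it was repaired after seeing the data, since the planned form could not be fitted. Among genes with a mean level of 0 or more, also chosen after seeing the data, 678 were higher, 578 lower and 967 had a called interaction (3669 over all genes). With 1 array left out, the counts ran from 1384 to 2130 higher, from 1849 to 2947 lower and from 3014 to 3867 interactions. Of the 105 genes examined, Cd8b1 turned from -0.04 to 0.17 with the mean of its probes, and ran from -0.11 to 0.02 with 1 array left out, above 0 without memory replicate 2, naive replicate 1 or naive replicate 4. Elf4 was no longer called without probes holding a run of 7 or more bases of the telomeric repeat (-0.56). Normexp ended the call of Ncr1 (0.25, adjusted p = 0.128) in limma.

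Same-numbered arrays of the 2 groups deviated together with correlations of 0.49, 0.19, 0.05 and 0.33, and memory replicate 3 correlated best with naive replicate 2 (0.20), so that pairing was not taken as shown, although 3 of 4 pairs exceeded 0.1 and it is not stated whether a number marks a sort. With the replicate block 2423 genes were higher and 3306 lower, and among the genes named only Cd8a changed its call (0.41, adjusted p = 0.0464). A slide block was not run, since each group lay on its own slide. The medians of 13 of 33 lists moved with normexp by more than the spread between replicates, and that of the interferon-stimulated genes turned to -0.36 at levels of 0 or more. Dim probes limit precision. Whether called or not, 164 genes had a bound for a higher and 412 for a lower memory signal. These were well above background on at least 3 arrays of 1 group and on none of the other.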
